A study of Homo sapiens with 12 samples.

Results

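The comparison described here is that of MV411 cells treated with the kinase inhibitor SGI-7079 with MV411 cells given only its solvent, DMSO. It used 6 of the study's 12 RNA-seq libraries, chosen by the cell line and treatment in their labels, with 3 libraries per group. SGI-7079 was given at 10 nM for 24 h. MV411 (also written MV4-11) is an established human acute myeloid leukaemia line of the monocytic type whose FLT3 gene, for a receptor kinase, carries an internal tandem duplication (FLT3-ITD), so that both groups have it, and the other 6 libraries are of a further line with that duplication, MOLM13. All 36041 genes named in the deposited table were considered, of which 33298 had a count in at least 1 MV411 library and 19783 passed the filter on low counts and were tested.

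FLT3 is a receptor of blood progenitors that signals through STAT5, the RAS-ERK cascade and PI3K-AKT once its kinase is active, and a tandem duplication next to the membrane keeps the kinase active without ligand. Cells of such leukaemias depend on that signal for growth. SGI-7079 binds the kinase pocket of AXL and of related receptor kinases, and the study's title describes it as an inhibitor of FLT3. The question of the comparison is how gene expression of the line differs after 24 h with the inhibitor.

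The libraries were alike in depth, with 52352252 to 60963409 counts per SGI-7079 library and 57328363 to 61862017 per DMSO library. In a principal component analysis of the 6 libraries the first component separated the treatments and held 86.1% of the variance. More genes had at least 10 counts in SGI-7079 libraries (20069 ± 173) than in DMSO libraries (18907 ± 70.8; SD, n = 3 each), and the share of counts from mitochondrial ribosomal RNA was 0.837% ± 0.027 with SGI-7079 and 0.406% ± 0.0070 with DMSO. Both measures, the genes detected and the mitochondrial ribosomal RNA share, differed without overlap, with an exact two-sided permutation p of 0.1, the smallest that 3 libraries against 3 can give. The share of all mitochondrial counts went the other way, 4.50% ± 0.20 with SGI-7079 and 5.31% ± 0.080 with DMSO. Since the libraries of a group are called replicates but not separate cultures, p-values here reflect only how far these libraries differ from each other, and part of that may be technical. In RNA from whole cultures, fewer cells of a kind and less RNA per cell cannot be told apart.

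The monocytic label was checked on marker genes. Lysozyme (LYZ), an enzyme of monocytes and granulocytes, had 1702, 1632 and 1648 CPM in the SGI-7079 libraries, against 1886, 1798 and 1877 CPM in the DMSO libraries. The myeloid master regulator SPI1 had 299, 290.0 and 289.5 CPM in the SGI-7079 libraries, against 299, 292 and 303 CPM in the DMSO libraries, and the integrin chain gene ITGAL stood at 2410.4 ± 50.9 CPM with SGI-7079 and 2214 ± 82.6 CPM with DMSO (SD, n = 3 each). The classical monocyte markers CD14 and VCAN were nearly absent in both groups, CD14 at 0.162 ± 0.0789 CPM with SGI-7079 and 0.25 ± 0.0346 CPM with DMSO and VCAN at 0.185 ± 0.112 CPM with SGI-7079 and 0.113 ± 0.0706 CPM with DMSO, and the scavenger receptor CD163 had no count in any of the 6 libraries. Other markers of the same list were expressed, and 22 of the 32 listed passed the filter on low counts. CSF1R stood at 151.9 CPM with SGI-7079 and 58.63 CPM with DMSO, FCGR1A at 33.85 and 52.4 CPM, and CD36 at 73.31 and 38.65 CPM. Marker genes of other lineages were at 0 or at low to moderate levels, apart from those of neutrophil secondary granules. The 5 tested of these summed to 303.6 to 308.6 CPM in the SGI-7079 libraries and 134.6 to 142.4 CPM in the DMSO libraries. CD3D, the T cell receptor component, had no count, the 3 tested erythroid markers (EPOR, KLF1 and TFR2) summed to 31.6 to 34.2 CPM in the SGI-7079 libraries and 39.4 to 48.1 CPM in the DMSO libraries, and the 3 tested fibroblast and epithelial markers to 8.59 to 10.3 CPM in the SGI-7079 libraries and 4.94 to 5.22 CPM in the DMSO libraries. The line thus expressed myeloid and monocytic genes in both groups, with CD14, VCAN and CD163 at or near 0.

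Expression differed widely between the treatments. In this text a gene rose or fell where the adjusted p of edgeR's quasi-likelihood test (Benjamini-Hochberg over all genes tested) was under 0.05, and it was called higher or lower where the fold was also over 2, that is a log2 fold change beyond 1. Levels are CPM, the counts scaled to a common library total, with library sizes adjusted by TMM, and every fold change is SGI-7079 over DMSO on the log2 scale with its standard error (SE). By this measure 5522 genes rose (27.9%) and 5706 fell (28.8%), with 2297 called higher (11.6%) and 1451 called lower (7.33%). Among the called genes 61.3% were higher in SGI-7079. That share was 73.5% with upper-quartile scaling, which moved the median log2 fold change of all genes to 0.22, against 0.043 with TMM scaling, and 51.4% or 70.8% when log2 FPKM was tested with limma and a pseudocount of 1 or 0.1. Changes of more than 4-fold were called for 762 genes higher and 394 lower, and of more than 8-fold for 290 higher and 71 lower. In 60 of the genes called higher all DMSO libraries were at 0 counts, and in 8 of those called lower all SGI-7079 libraries were. Most genes named below were picked among those without overlap between the groups, so that their separation follows from the choice.

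**Figure D1:**
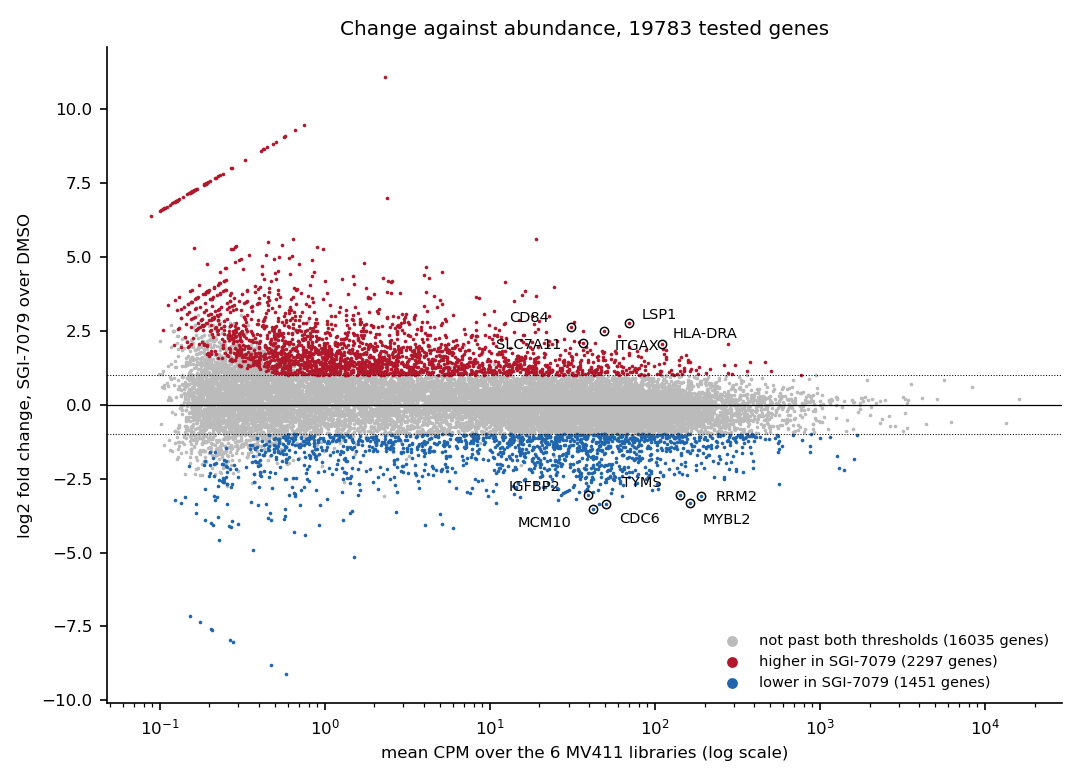
Log2 fold change of SGI-7079 over DMSO (vertical axis) against the mean CPM of the 6 MV411 libraries (horizontal, log scale) for 19783 genes. Red points are the 2297 genes called higher, blue points the 1451 called lower, dotted lines mark a 2-fold change, and the straight diagonal streaks at low CPM are genes with no counts in one treatment, whose fitted change depends on the model's prior. Higher calls crowd at low abundance, lower calls reach high abundance.

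The direction of the calls went with abundance and gene type. Of 5362 genes under 1 CPM on average, 17.0% were called higher and 4.64% lower, and of 3250 genes between 1 and 5 CPM, 23.3% were called higher and 7.17% lower. The order was turned above 20 CPM, where 3.54% of 5712 genes between 20 and 100 CPM were called higher and 8.82% lower, and over 100 CPM 2.01% of 2334 genes were called higher and 9.30% lower. Protein-coding genes alone showed the same turn, with 25.6% higher and 9.90% lower between 1 and 5 CPM and 1.92% higher and 9.44% lower over 100 CPM. Long non-coding RNAs (lncRNAs) had 725 of 4038 genes called higher and 153 lower, with a median log2 fold change of 0.41, while protein-coding genes had 1293 of 13635 called higher and 1192 lower, with a median of -0.058. The greater number of genes detected in SGI-7079 libraries moved with these counts, and its part in them was not tested.

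**Figure D2:**
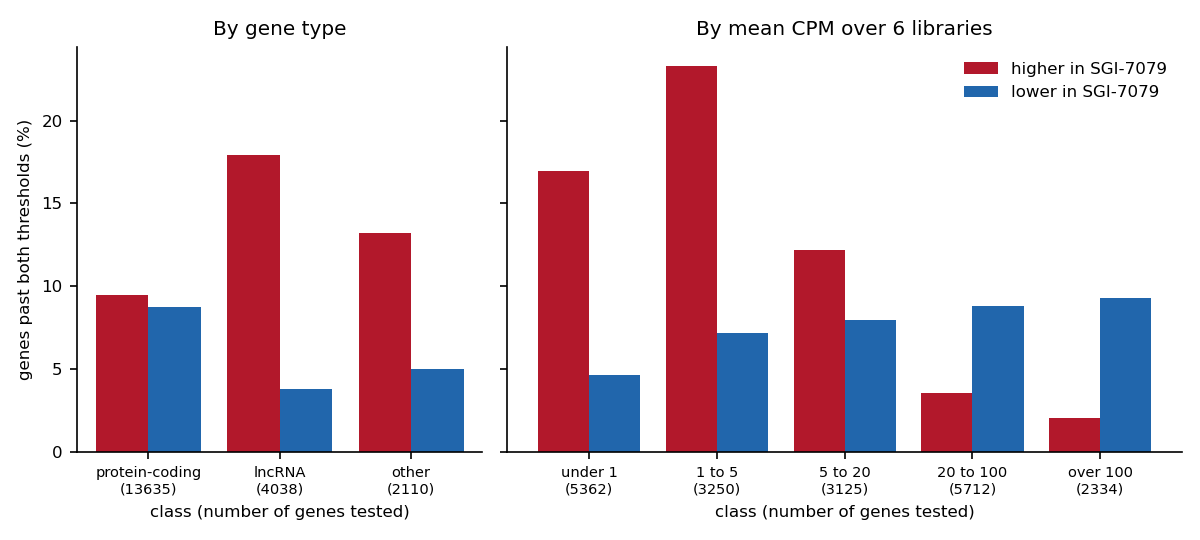
Percent of tested genes called higher (red) or lower (blue) in SGI-7079, by gene type (left) and by mean CPM over the 6 libraries (right), with the number of genes tested in brackets. The higher calls exceed the lower ones under 20 CPM and among lncRNAs, and the lower calls exceed the higher ones above 20 CPM.

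Of the well-expressed protein-coding genes, the 12 that rose most included genes of the leukocyte surface and cytoskeleton, of lipid transport and of autophagy. LSP1, an actin-binding protein of leukocytes, had 117, 121 and 128 CPM in the SGI-7079 libraries, against 17.1, 18.3 and 18.9 CPM in the DMSO libraries, a log2 fold change of 2.75 ± 0.056 (adjusted p = 6.63e-10). CD84, an adhesion receptor of the SLAM family, had 47.4, 56.5 and 57.1 CPM in the SGI-7079 libraries, against 8.56, 9.49 and 7.75 CPM in the DMSO libraries (2.64 ± 0.10). The groups lay far apart in both genes, which were picked for a large change without overlap. ABCA7, a lipid transporter that also takes part in phagocytosis, was the most abundant of this set at 453, 444 and 446 CPM in the SGI-7079 libraries, against 109, 105 and 113 CPM in the DMSO libraries. FGD2, which activates the small GTPase CDC42 in antigen-presenting cells, changed by 2.13 ± 0.099, and CALCOCO1, a receptor for the autophagy of endoplasmic reticulum, by 1.94 ± 0.040. The incretin receptor gene GIPR changed by 2.31 ± 0.081. AMY2B, an amylase, and MS4A4E, a membrane protein gene, changed by 2.14 ± 0.13 and 2.07 ± 0.074; both have near-identical neighbours, so their counts are uncertain. ITGAX, SLC7A11 and HLA-DRA, also of this set, are described with their groups.

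The 12 that fell most included CDC45, DSCC1 and RRM2 of DNA synthesis and the genes below. MCM10, which helps switch on the replicative helicase, had 6.48, 7.10 and 6.79 CPM in the SGI-7079 libraries, against 76.8, 80.8 and 75.5 CPM in the DMSO libraries, and CDC6, which loads the helicase onto origins, had 8.95, 9.51 and 8.53 CPM in the SGI-7079 libraries, against 93.5, 90.3 and 93.4 CPM in the DMSO libraries. MYBL2, a transcription factor of the cell cycle, had 32.3, 29.9 and 26.1 CPM in the SGI-7079 libraries, against 300.5, 301 and 294 CPM in the DMSO libraries. In these 3 genes every treated library was far below the lowest control, as follows from their choice by size of change without overlap. The kinase gene PKMYT1, which holds CDK1 inactive before mitosis, changed by -3.08 ± 0.052, TCF19 by -2.99 ± 0.048, the checkpoint ATPase gene TRIP13 by -2.96 ± 0.075 and the mitotic kinase gene PBK by -2.95 ± 0.099. IGFBP2, a secreted binder of insulin-like growth factors, had 8.50, 7.97 and 8.74 CPM in the SGI-7079 libraries, against 69.1, 66.8 and 73.9 CPM in the DMSO libraries, a change of -3.06 ± 0.067 (adjusted p = 8.26e-10). IGF1, the ligand that IGFBP2 binds, went the other way, with 37.1, 48.8 and 26.1 CPM in the SGI-7079 libraries, against 0.78, 0.865 and 0.676 CPM in the DMSO libraries, although its treated libraries spread from 26.1 to 48.8 CPM.

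A few genes passed nearly from absence to presence or the reverse. TMEM86A, an enzyme of the breakdown of lysoplasmalogens, had 9.24, 8.20 and 7.16 CPM in the SGI-7079 libraries, against 0.334, 0.229 and 0.694 CPM in the DMSO libraries, and the inhibitory receptor gene LILRB3 had 7.70, 8.48 and 7.67 CPM in the SGI-7079 libraries, against 0.446, 0.212 and 0.295 CPM in the DMSO libraries. LILRB3 has near-identical neighbours, so that its counts are uncertain. The neuropeptide galanin (GAL) had 0.419, 0.74 and 0.18 CPM in the SGI-7079 libraries, against 8.32, 7.64 and 7.03 CPM in the DMSO libraries. FAM111B, a protease gene that is active in S phase, had 0.513, 0.509 and 0.18 CPM in the SGI-7079 libraries, against 5.52, 5.93 and 3.63 CPM in the DMSO libraries. The groups lie apart in these 4 genes by the rule that chose them.

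By FPKM, which corrects for transcript length, the 8 largest gains in level included iron storage and translation genes. The ferritin light chain gene FTL averaged 6207 ± 177 FPKM with SGI-7079 and 4810 ± 18.8 FPKM with DMSO (SD, n = 3 each), FTH1, the ferritin heavy chain, 1206 ± 15.1 FPKM with SGI-7079 and 606 ± 9.02 FPKM with DMSO, and the elongation factor gene EEF2 2459 ± 18.7 FPKM with SGI-7079 and 1457 ± 34.5 FPKM with DMSO. ACTG1, a cytoplasmic actin, averaged 1075 ± 19.7 FPKM with SGI-7079 and 587 ± 16.2 FPKM with DMSO. The other 4 were RPS2, EEF1A1, RPL13A and EEF1G. These FPKM were used as deposited, without the TMM factors, which were 1.057 to 1.067 for SGI-7079 and 0.932 to 0.951 for DMSO libraries. In the test of counts the gains were smaller, with log2 fold changes of 0.19 ± 0.030 for FTL, 0.82 ± 0.028 for FTH1, 0.58 ± 0.030 for EEF2 and 0.70 ± 0.033 for ACTG1. Many of these genes have processed pseudogenes that could share reads. The 8 largest losses of FPKM were all mitochondrially encoded mRNAs, among them MT-CO1 at 6779 ± 354 FPKM with SGI-7079 and 9174 ± 272 FPKM with DMSO and MT-CO2 at 3222 ± 91.4 FPKM with SGI-7079 and 5296 ± 171 FPKM with DMSO. In the test of counts MT-CO1 and MT-CO2 changed by -0.61 ± 0.041 and -0.89 ± 0.035. The ribosomal RNAs of the mitochondrial genome had a higher share of counts in SGI-7079 libraries, as given above, and the part of RNA selection in either was not tested.

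**Figure D3:**
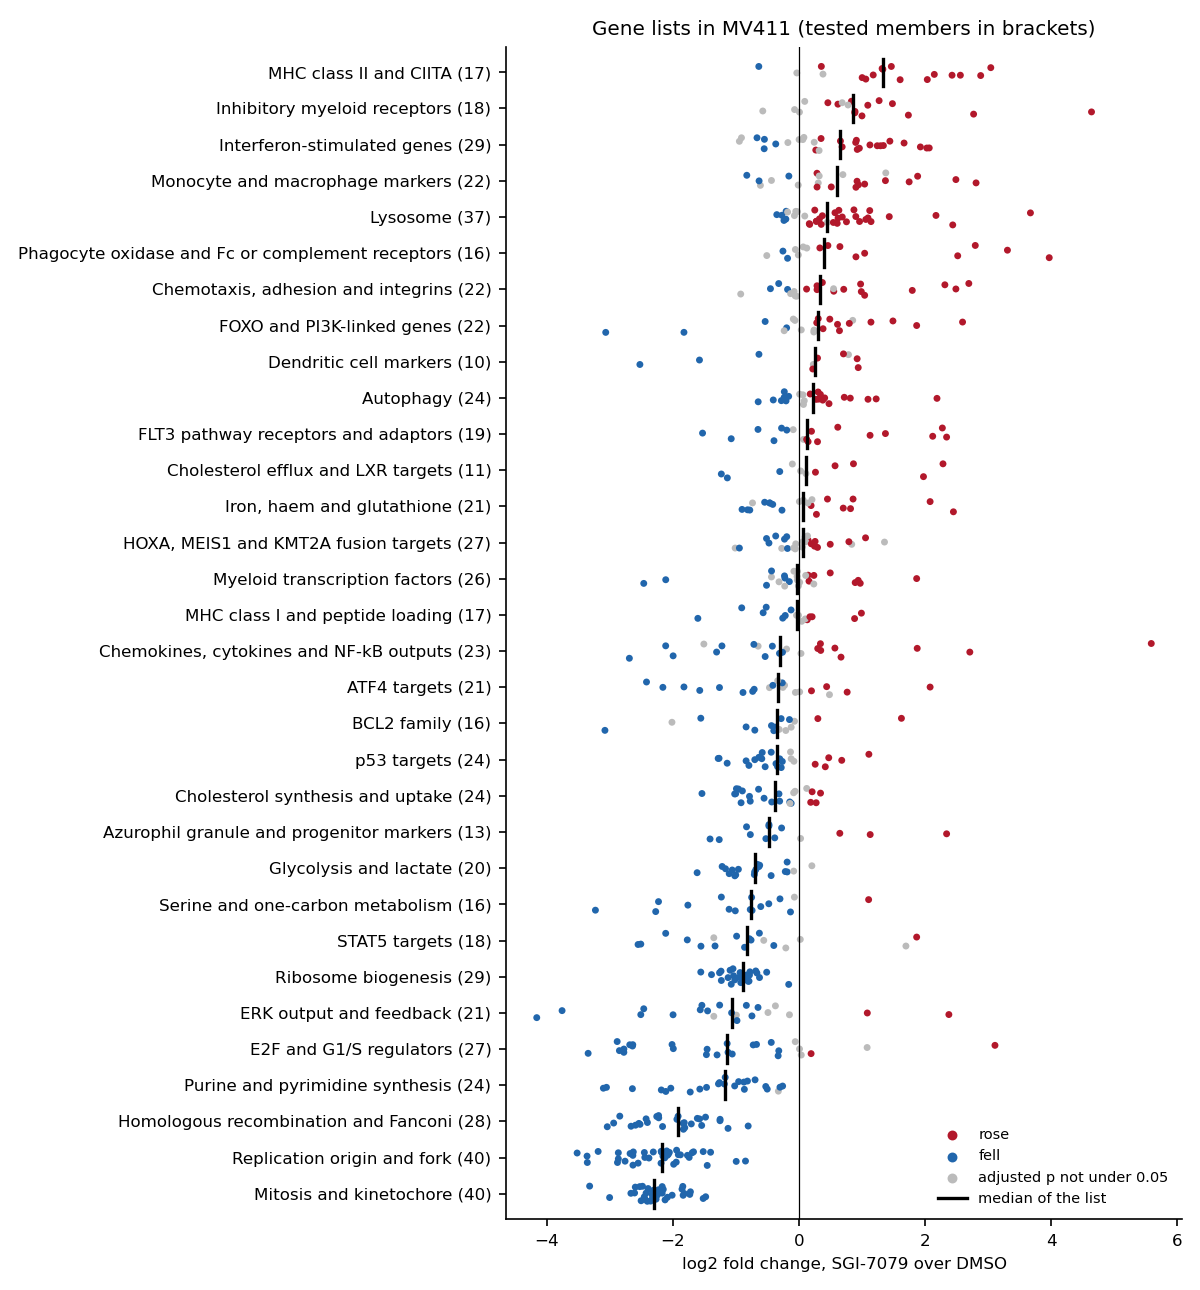
Log2 fold change of SGI-7079 over DMSO of each tested member of 32 gene lists (points, 1 row per list, number tested in brackets), red where the gene rose, blue where it fell and grey where the adjusted p was not under 0.05, with the list's median as a black bar. The lists of mitosis, of replication and of homologous recombination lie furthest left, with no red point. MHC class II, inhibitory receptors, interferon-stimulated genes and monocyte markers have the medians furthest to the right among these 32 lists. Markers of other lineages are not plotted. Those of T and NK cells (1.38), fibroblasts and epithelium (1.29) and B cells (0.79) had medians further right than the monocyte markers (0.61). These medians rest on 4, 3 and 7 tested genes and were below that of the monocyte markers with limma on log2(FPKM + 1).

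Several receptor genes rose, while the AXL ligand gene and some adaptor genes fell. FLT3 itself had 494, 499.8 and 506 CPM in the SGI-7079 libraries, against 416, 398 and 408 CPM in the DMSO libraries, a log2 fold change of 0.30 ± 0.030 (adjusted p = 1.97e-05). The related receptor KIT, which binds stem cell factor, had 27.2, 25.3 and 28.9 CPM in the SGI-7079 libraries, against 4.79, 6.30 and 4.93 CPM in the DMSO libraries (2.34 ± 0.12), and CSF1R, the receptor for macrophage colony-stimulating factor, had 152, 151 and 153 CPM in the SGI-7079 libraries, against 59.1, 58.0 and 58.7 CPM in the DMSO libraries (1.37 ± 0.033). AXL, a target of the compound, had 25.1, 24.8 and 28.2 CPM in the SGI-7079 libraries, against 6.46, 5.40 and 6.05 CPM in the DMSO libraries (2.12 ± 0.10). Of these 4 receptors the shift was smallest for FLT3. Of the receptors related to AXL, MERTK rose (2.28 ± 0.27) and TYRO3 fell (-1.07 ± 0.18). GAS6, the ligand of AXL, fell and stood at 53.2 ± 1.56 CPM with SGI-7079 and 154 ± 4.69 CPM with DMSO (SD, n = 3 each), and the adaptor phosphatase gene PTPN11 (SHP2), which links receptors to RAS, changed by -0.65 ± 0.038. Of the 19 receptors, ligands and adaptors listed, 10 rose and 6 fell, with a median of 0.12 that was 0.30 with upper-quartile scaling. Beside the counts of this and the following lists stand the shares of all genes tested: 27.9% rose, 28.8% fell, 11.6% were called higher and 7.33% lower.

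Targets of STAT5 and ERK signalling mostly fell, while genes linked to FOXO and PI3K rose more often than they fell. Of 18 STAT5 targets 12 fell and 1 rose, with a median of -0.82 that was -0.46 with limma on log2(FPKM + 1). The survival kinase gene PIM1 had 15.7, 18.0 and 16.0 CPM in the SGI-7079 libraries, against 97.7, 95.9 and 97.8 CPM in the DMSO libraries, and CISH, which encodes a feedback inhibitor of cytokine receptors and is a classical STAT5 target, had 19.0, 19.2 and 17.9 CPM in the SGI-7079 libraries, against 64.7, 65.3 and 61.4 CPM in the DMSO libraries. In both genes, picked among those without overlap, the highest treated library was far below the lowest control. The exception was BCL6, a repressor gene that STAT5 is known to hold down, at 10.2 ± 0.105 CPM with SGI-7079 and 2.79 ± 0.721 CPM with DMSO (SD, n = 3 each). Of 21 genes of ERK output and feedback 14 fell and 2 rose, with a median of -1.07 that was -0.33 in the same alternative; the immediate early factor EGR1 had 15.7, 12.1 and 15.8 CPM in the SGI-7079 libraries, against 85.3, 71.7 and 82.7 CPM in the DMSO libraries, the phosphatase gene DUSP6 that switches ERK off had 28.1, 22.4 and 23.4 CPM in the SGI-7079 libraries, against 75.6, 70.1 and 69.1 CPM in the DMSO libraries, and MYC had 369, 355 and 349 CPM in the SGI-7079 libraries, against 643, 622 and 645 CPM in the DMSO libraries. FOS, an immediate early gene, stood at 206 ± 30.8 CPM with SGI-7079 and 228 ± 5.64 CPM with DMSO (SD, n = 3 each) and did not pass the test (-0.15 ± 0.088, adjusted p = 0.179). Of 22 genes linked to FOXO factors and PI3K, 11 rose and 4 fell, with a median of 0.30 (0.47 with upper-quartile scaling), and with the arrestin genes TXNIP (1.14 ± 0.035) and ARRDC3 (2.60 ± 0.18) among the risers and the pseudokinase genes TRIB2 (-3.06 ± 0.48) and TRIB3 (-1.82 ± 0.13) among the fallers. TRIB2 was scarce, at 0.131 ± 0.074 CPM with SGI-7079 and 1.09 ± 0.31 CPM with DMSO.

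The start of the CISH gene is shown because it holds several copies of the letters that STAT5 dimers bind. The window runs from 250 bases before to 50 bases after the gene's start in RefSeq, build GRCh38.p14, at chr3:50611725-50612024, minus strand, and capitals mark TTCNNNGAA, the STAT element, read on either strand.
CISH: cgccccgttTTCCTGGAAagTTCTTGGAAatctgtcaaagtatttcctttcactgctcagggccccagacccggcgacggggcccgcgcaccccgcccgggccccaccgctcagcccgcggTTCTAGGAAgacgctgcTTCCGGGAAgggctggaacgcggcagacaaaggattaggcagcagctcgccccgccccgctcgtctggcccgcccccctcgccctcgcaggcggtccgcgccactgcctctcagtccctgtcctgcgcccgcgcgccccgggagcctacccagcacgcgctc
It held 4 matches, and among STAT5 targets with a RefSeq window 2 of 12 (16.7%) held at least 1, against 7.88% of all 27305 windows. The ETS letters CCGGAAG, searched for the ERK list, were in 0 of 13 of its windows, against 18.9% of those of tested protein-coding genes. The FOXO letters GTAAACA were in 3 of 20 (15%) windows of the FOXO list, against 2.32% of those of tested protein-coding genes. The matches are letters in a window, not measured binding.

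Genes of entry into S phase mostly fell. Of 27 regulators of the G1/S transition 21 fell and 2 rose, with a median of -1.14. E2F1, the activator of S-phase genes, had 11.4, 10.6 and 10.7 CPM in the SGI-7079 libraries, against 80.1, 77.1 and 83.1 CPM in the DMSO libraries, and CCNA2, the cyclin A gene, had 27.8, 28.2 and 27.8 CPM in the SGI-7079 libraries, against 182, 180.4 and 176 CPM in the DMSO libraries. The kinase gene CDK2 changed by -1.99 ± 0.055. CDK6, another G1 kinase gene, was at 369 ± 19.1 CPM with SGI-7079 and 384 ± 24.8 CPM with DMSO (SD, n = 3 each) and did not pass the test. Of the inhibitors, CDKN1C (p57) rose, with 4.46, 2.66 and 4.17 CPM in the SGI-7079 libraries, against 0.371, 0.529 and 0.399 CPM in the DMSO libraries, CDKN1A (p21) fell, with 82.6, 71.8 and 68.6 CPM in the SGI-7079 libraries, against 165, 159 and 166 CPM in the DMSO libraries, and CDKN1B (p27) changed by 0.04 ± 0.038 (adjusted p = 0.424). The pocket protein gene RBL2, which holds genes silent in resting cells, was the other member that rose (0.19 ± 0.036).

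All 40 tested genes of replication origins and forks fell, as did all 28 of homologous recombination and Fanconi anaemia repair and all 40 of mitosis and the kinetochore, with medians of -2.17, -1.92 and -2.30; the median of all genes was 0.043. The helicase subunit gene MCM6 had 71.2, 71.0 and 70.4 CPM in the SGI-7079 libraries, against 388, 378 and 396 CPM in the DMSO libraries. BRCA1, a repair factor, had 23.6, 24.6 and 25.5 CPM in the SGI-7079 libraries, against 135, 137 and 124 CPM in the DMSO libraries. The mitotic kinase gene PLK1 had 36.1, 36.5 and 34.4 CPM in the SGI-7079 libraries, against 187, 185 and 189 CPM in the DMSO libraries, and CDC20, an activator of the anaphase-promoting complex, had 26.4, 25.1 and 26.7 CPM in the SGI-7079 libraries, against 152, 148 and 150.1 CPM in the DMSO libraries. Libraries of a treatment lay close together in each of the 4 genes, and the treatments were far apart. Both follow from their choice by smallest adjusted p among genes without overlap. TOP2A, the mitotic topoisomerase, remained the most counted of the mitosis list, at 144 ± 3.11 CPM with SGI-7079 and 638 ± 29.3 CPM with DMSO (SD, n = 3 each).

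Starts of 4 of these genes are shown because replication and mitosis genes differ in the regulatory letters they hold. In the replication genes CDC6 and MCM6, capitals mark the E2F motif in any of its searched forms, which were TTCCCGC with a run of C, the form TTGGCGC with a GG pair, and lastly the form TTCGCGC with alternating letters. In the mitosis genes PLK1 and CDC20, capitals mark TTTGAA, the cell cycle genes homology region (CHR), and CCAAT, the box bound by NF-Y. Both strands were searched, and an E2F motif can overlap a reversed CCAAT. The windows lie at chr17:40287629-40287928, plus strand (CDC6), chr2:135876394-135876693, minus strand (MCM6), chr16:23678639-23678938, plus strand (PLK1) and chr1:43358731-43359030, plus strand (CDC20) of GRCh38.p14 and are RefSeq's.
CDC6: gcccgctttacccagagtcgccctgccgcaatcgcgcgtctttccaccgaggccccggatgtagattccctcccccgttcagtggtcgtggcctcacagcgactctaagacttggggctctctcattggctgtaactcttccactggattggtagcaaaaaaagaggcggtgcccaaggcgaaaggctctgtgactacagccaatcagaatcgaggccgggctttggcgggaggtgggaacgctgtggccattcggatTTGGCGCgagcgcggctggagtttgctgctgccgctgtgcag
MCM6: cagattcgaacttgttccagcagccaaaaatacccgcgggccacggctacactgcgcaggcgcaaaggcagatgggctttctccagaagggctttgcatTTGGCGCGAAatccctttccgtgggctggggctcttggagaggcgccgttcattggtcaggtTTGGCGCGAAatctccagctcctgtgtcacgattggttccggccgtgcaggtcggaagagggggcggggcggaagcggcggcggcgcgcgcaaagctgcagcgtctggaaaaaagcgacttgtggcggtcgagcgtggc
PLK1: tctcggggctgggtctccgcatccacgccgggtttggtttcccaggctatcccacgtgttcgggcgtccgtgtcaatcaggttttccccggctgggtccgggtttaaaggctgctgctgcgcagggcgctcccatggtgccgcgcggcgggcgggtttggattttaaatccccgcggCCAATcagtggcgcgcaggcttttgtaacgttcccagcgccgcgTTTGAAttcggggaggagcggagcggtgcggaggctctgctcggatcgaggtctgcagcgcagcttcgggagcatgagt
CDC20: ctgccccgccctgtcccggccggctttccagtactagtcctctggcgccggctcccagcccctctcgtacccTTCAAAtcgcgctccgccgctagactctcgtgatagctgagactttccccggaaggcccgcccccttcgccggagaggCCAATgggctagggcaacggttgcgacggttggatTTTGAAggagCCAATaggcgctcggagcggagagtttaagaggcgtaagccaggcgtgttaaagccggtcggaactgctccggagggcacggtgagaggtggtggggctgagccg
An E2F motif was present in 25 of 35 (71.4%) windows of the replication list and 16 of 24 (66.7%) of the repair list, against 11.2% of all windows and 17.5% of those of tested protein-coding genes. It was present in 9 of 33 (27.3%) windows of the mitosis list. The CHR letters showed the reverse order, with 22 of 33 (66.7%) in the mitosis list, 1 of 35 (2.86%) in the replication list, 15.4% of all windows and 10.2% of those of tested protein-coding genes. Among protein-coding genes called lower, 29.3% of windows had an E2F motif and 18.2% the CHR letters; among those called higher the shares were 10.9% and 13.7%, so that the CHR share of either set was above that of tested protein-coding genes. A match does not show that a factor is bound there.

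Genes that supply building blocks fell with them. Of 24 genes of purine and pyrimidine synthesis 23 fell, and the 1 that did not pass was IMPDH2 (-0.33 ± 0.16). The ribonucleotide reductase subunit gene RRM2 had 39.2, 41.7 and 38.5 CPM in the SGI-7079 libraries, against 343, 333 and 347 CPM in the DMSO libraries, and TYMS, which makes thymidylate, had 31.4, 29.9 and 31.0 CPM in the SGI-7079 libraries, against 248, 247 and 269.8 CPM in the DMSO libraries. Of 16 genes of serine and one-carbon metabolism 14 fell, led by PSAT1 (-2.27 ± 0.057) and the folate enzyme gene MTHFD1 (-1.76 ± 0.032). All 29 tested ribosome biogenesis genes fell, with a median of -0.89, and 18 of 20 glycolysis genes fell, among them LDHA, the lactate dehydrogenase gene, with 278, 269.5 and 280.4 CPM in the SGI-7079 libraries, against 863, 820.3 and 849.8 CPM in the DMSO libraries. An E-box CACGTG, the letters bound by MYC and by related factors, was present in 10 of 23 (43.5%) windows of the ribosome biogenesis list, against 10.1% of tested protein-coding genes. Among 290 pathways in the table's own annotation with at least 20 tested genes, the proteasome stood near the lower end, where 43 of 44 genes fell, with a median of -0.78.

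**Figure D4:**
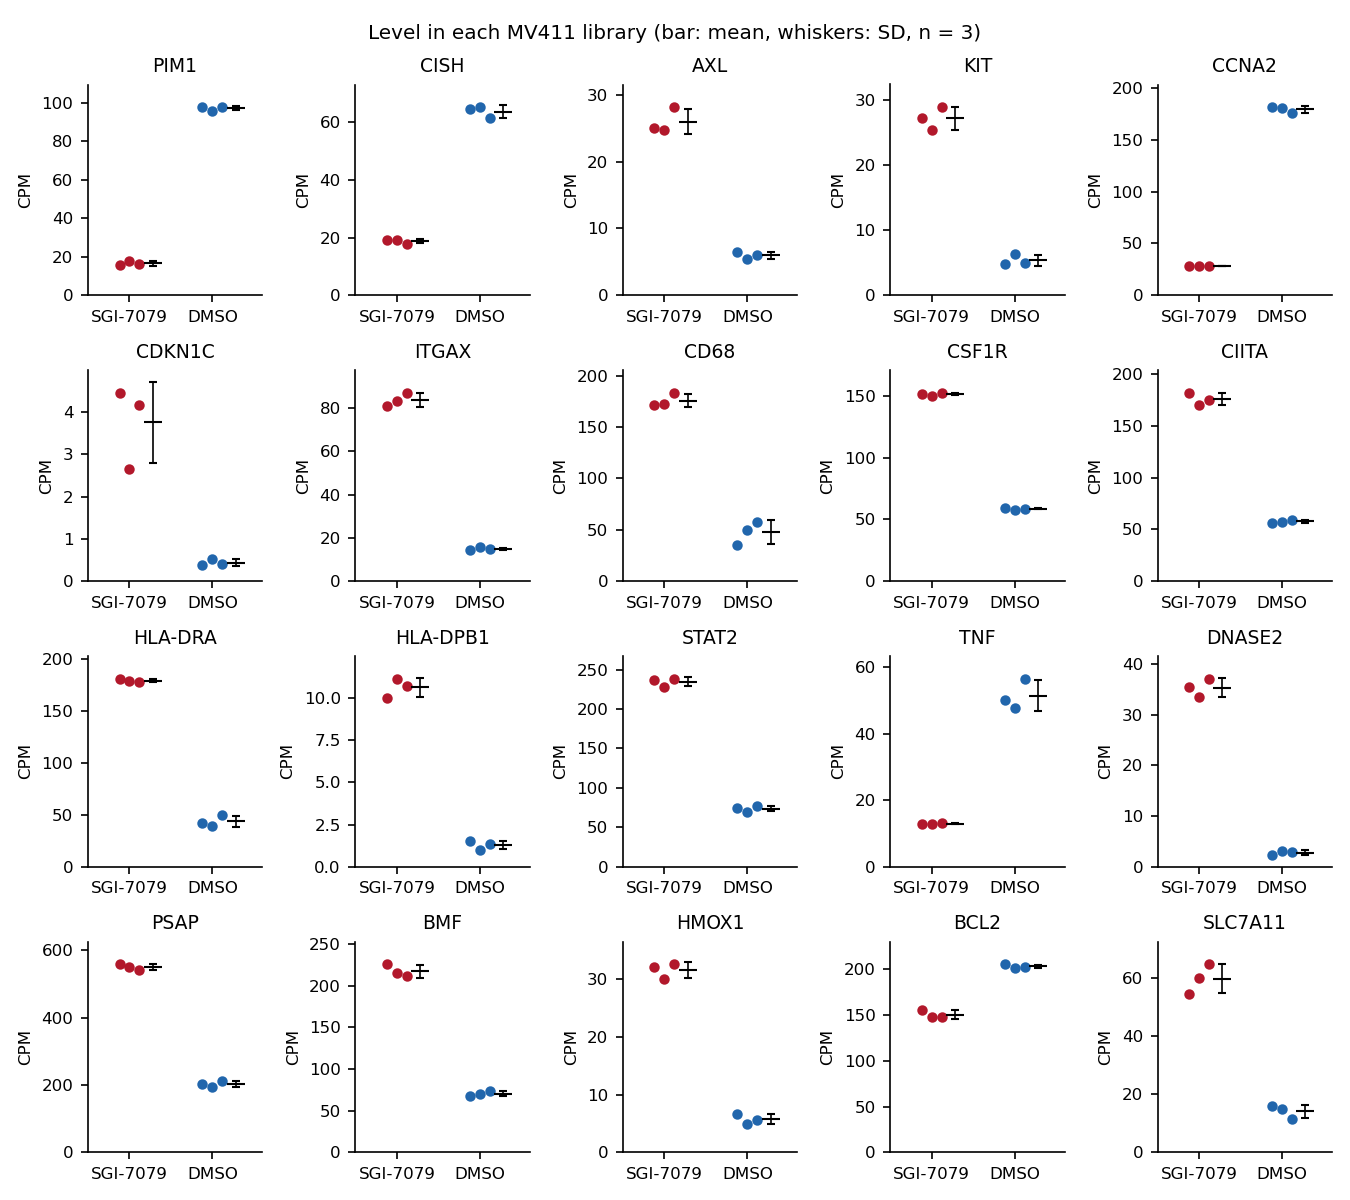
CPM of 20 genes in each of the 3 SGI-7079 libraries (red, left) and 3 DMSO libraries (blue, right), with the mean and SD beside the points and an axis from 0 in each panel. The libraries of a treatment lie close together in most panels, and less so in some, such as CD68 and SLC7A11 with DMSO and CDKN1C with SGI-7079. The treatments do not overlap in any of the 20 genes, most of which were named by a rule that asked for no overlap.

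Genes of sterol synthesis mostly fell. Of 24 genes of cholesterol synthesis and uptake 16 fell and 4 rose; FDPS, which makes farnesyl diphosphate, changed by -1.02 ± 0.046 and the epoxidase gene SQLE by -0.90 ± 0.040. The 4 that rose did so slightly. Among them were the synthesis enzyme genes TM7SF2 (0.34 ± 0.078), a sterol reductase, and MVD (0.19 ± 0.063), of the mevalonate pathway. The others were the regulator gene SREBF2 (0.21 ± 0.035) and INSIG1 (0.27 ± 0.038), the retention factor of the sterol sensor. Of 11 genes of cholesterol efflux and other LXR targets 5 rose and 3 fell, where 27.9% of all genes rose and 28.8% fell. The 3 were fatty acid genes, FASN with 343, 326 and 332 CPM in the SGI-7079 libraries, against 729, 707 and 763 CPM in the DMSO libraries, SCD (-1.23 ± 0.047) and SREBF1 (-0.30 ± 0.043). The risers included the apolipoprotein genes APOC1 (1.98 ± 0.25) and APOE (2.29 ± 0.41) and the cholesterol exporter gene ABCA1 (0.87 ± 0.23), all under 5 CPM in every library.

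Myeloid surface genes rose more often than they fell. Of 22 tested monocyte and macrophage markers 12 rose and 3 fell, with a median of 0.61. ITGAX (CD11c), an integrin of dendritic cells and macrophages, had 80.8, 83.5 and 87.1 CPM in the SGI-7079 libraries, against 14.4, 15.5 and 14.8 CPM in the DMSO libraries (2.49 ± 0.055, adjusted p = 8.66e-10). CD68, a lysosomal membrane protein of macrophages, had 172, 173 and 184 CPM in the SGI-7079 libraries, against 35.5, 49.5 and 58.0 CPM in the DMSO libraries, and CSF1R is given above. FCGR2A, an activating antibody receptor, and the scavenger receptor gene CD36 changed by 0.91 ± 0.051 and 0.92 ± 0.048. The fallers were FCGR1A, the high-affinity antibody receptor (-0.63 ± 0.056), the lipid receptor gene TREM2 (-0.83 ± 0.18), and LYZ (-0.16 ± 0.032), whose sign turned with upper-quartile scaling (0.015). CD14 and VCAN, near 0 in both groups, did not pass. The sums of the 22 markers were 3133 to 3196 CPM in the SGI-7079 libraries and 2714 to 2846 CPM in the DMSO libraries, so that the list as a whole differed less than its median member, LYZ being its largest part.

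Of 18 genes of inhibitory myeloid receptors and their relatives 12 rose and the others did not pass the test. LILRB4, which dampens myeloid activation, had 239, 232 and 233 CPM in the SGI-7079 libraries, against 124, 123 and 133 CPM in the DMSO libraries, and VSIR (VISTA), a checkpoint receptor, had 173, 176 and 175 CPM in the SGI-7079 libraries, against 86.3, 87.8 and 87.6 CPM in the DMSO libraries. LILRA2, an activating relative, changed by 1.09 ± 0.045. Among genes of the phagocyte oxidase and of antibody and complement receptors 9 of 16 rose and 2 fell: the oxidase subunit gene NCF4 rose by 0.33 ± 0.034 and CYBA fell (-0.25 ± 0.032), and FCGR2B, an inhibitory antibody receptor with close copies, rose by 2.80 ± 0.20. Of 22 genes of chemotaxis and adhesion 13 rose and 3 fell. ITGB7, a partner chain of gut-homing integrins, had 115, 125 and 122 CPM in the SGI-7079 libraries, against 33.9, 32.2 and 37.8 CPM in the DMSO libraries, the hyaluronan receptor gene CD44 changed by 0.71 ± 0.036 and PECAM1 by 0.99 ± 0.038, while ITGB1 (-0.45 ± 0.053), ITGB2 (-0.18 ± 0.039) and CD81 (-0.32 ± 0.031) were lower.

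Dendritic cell markers were mixed: of 10 tested 5 rose and 3 fell, where 27.9% of all genes rose and 28.8% fell. CD1D, which presents lipids, rose by 0.92 ± 0.071 and IRF4, a factor of dendritic cells and B cells, by 0.94 ± 0.086, whereas BATF3, needed by cross-presenting dendritic cells, fell (-2.52 ± 0.43), as did FCER1A (-1.58 ± 0.38) and the maturation marker CD83 (-0.63 ± 0.077). BATF3 and FCER1A were scarce, at means of 0.381 and 0.63 CPM with SGI-7079 and 2.22 and 1.88 CPM with DMSO. Azurophil granule and progenitor genes mostly fell, 9 of 13, with 3 that rose. The granule protease gene PRTN3 had 333, 322 and 317 CPM in the SGI-7079 libraries, against 852, 847 and 879 CPM in the DMSO libraries, and ELANE, neutrophil elastase, changed by -0.83 ± 0.053. The risers were the complement protease gene CFD (0.65 ± 0.042), the surface enzyme gene CD38 (1.13 ± 0.10) and KIT. CSF3R, the granulocyte colony-stimulating factor receptor, had 305, 300.5 and 301 CPM in the SGI-7079 libraries, against 131, 126 and 134 CPM in the DMSO libraries and rose, while the granule protein genes S100A8 (-1.57 ± 0.28) and S100A9 (-1.72 ± 0.21) fell and stayed under 7 CPM. Of the 7 tested B cell markers, at 36.5 to 37.0 CPM in the SGI-7079 libraries and 21.6 to 24.0 CPM in the DMSO libraries in sum, 5 rose and 1 fell; the largest part was the immunoglobulin light chain gene IGKC (0.62 ± 0.066). Of 5 megakaryocyte markers ITGA2B (1.10 ± 0.088) and GP1BA rose, and all 4 tested T and NK cell markers rose, with sums of 41.7 to 46.3 CPM in the SGI-7079 libraries and 31.7 to 35.8 CPM in the DMSO libraries; CD3D and KLRD1 had no count. The medians were 1.38 for T and NK cell markers, 0.79 for B cell markers and 1.29 for the 3 fibroblast and epithelial markers. Of the latter, PDGFRB and KRT8 rose. Each median was above that of the monocyte and macrophage markers (0.61). With limma on log2(FPKM + 1) they were 0.30, 0.36 and 0.18, below the 0.45 of the monocyte and macrophage markers. With a pseudocount of 0.1 they stayed above it. Of the markers listed, 4 of 15, 7 of 10 and 3 of 11 had passed the filter on low counts. The part of such genes in the changes above was not tested.

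The factors that define the myeloid lineage changed about as often as genes in general. Of 26 such transcription factor genes 8 rose and 7 fell, 1 and 2 of them by more than 2-fold, where 27.9% of all genes rose, 28.8% fell, 11.6% were called higher and 7.33% lower, with a median of -0.02 that turned to 0.15 with upper-quartile scaling. SPI1 changed by -0.02 ± 0.032 and CEBPA by -0.03 ± 0.036, and neither passed the test. IRF8, a factor of monocytes, had 886, 861 and 849 CPM in the SGI-7079 libraries, against 1022, 996 and 1008 CPM in the DMSO libraries, and MYB, a factor of progenitors, had 491, 510.5 and 488 CPM in the SGI-7079 libraries, against 583, 583 and 578 CPM in the DMSO libraries, both slightly lower. RUNX2 (0.50 ± 0.033) and TFEC (0.89 ± 0.076), a relative of TFEB in macrophages, rose, and GATA2, a stem cell factor, fell (-2.11 ± 0.23). The HOXA and MEIS1 programme that KMT2A fusions maintain also had shares near those of all genes: of 27 genes 8 rose, 1 of them by more than 2-fold, and 7 fell, with a median of 0.07 (0.24 with upper-quartile scaling). HOXA9 had 92.6, 91.9 and 99.4 CPM in the SGI-7079 libraries, against 83.3, 77.7 and 77.8 CPM in the DMSO libraries, and MEIS1 had 116, 122 and 118 CPM in the SGI-7079 libraries, against 105, 109 and 107 CPM in the DMSO libraries. The cofactor genes DOT1L (-0.51 ± 0.031), MEN1 (-0.37 ± 0.039) and PSIP1 (-0.94 ± 0.061) fell, and JMJD1C, a fusion target, rose by 0.79 ± 0.067.

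Genes of antigen presentation by MHC class II were higher as a group. Of 17 tested genes 14 rose, 13 of them by more than 2-fold, and 1 fell, with a median of 1.33, and the sums were 1942 to 1983 CPM in the SGI-7079 libraries and 926 to 972 CPM in the DMSO libraries. CIITA, the coactivator that switches class II genes on, had 182, 170.4 and 175 CPM in the SGI-7079 libraries, against 56.5, 57.5 and 59.3 CPM in the DMSO libraries (1.61 ± 0.040, adjusted p = 1.47e-09). HLA-DRA, the shared chain of HLA-DR, had 181, 178 and 178 CPM in the SGI-7079 libraries, against 42.3, 39.1 and 49.3 CPM in the DMSO libraries. HLA-DPA1 had 35.5, 30.4 and 34.7 CPM in the SGI-7079 libraries, against 5.68, 5.05 and 6.30 CPM in the DMSO libraries, and CD74, the chaperone of class II, had 1053, 1015 and 1005 CPM in the SGI-7079 libraries, against 509, 509 and 514 CPM in the DMSO libraries. The treatments were apart in each of these genes, by 1.00 ± 0.030 in the abundant CD74 and by 2.56 ± 0.11 in the scarcer HLA-DPA1 on the log2 scale. The member that fell was RFXAP (-0.64 ± 0.085), a subunit of the RFX complex that recruits CIITA. Reads of HLA genes can match several alleles and relatives, so single HLA values are less certain than the direction of the group.

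Starts of 2 class II genes are shown because of the CCAAT letters that they share, which NF-Y binds beside RFX at these genes. They are the RefSeq sequence of GRCh38.p14, not that of the line, at chr6:32953048-32953347, minus strand (HLA-DMA) and chr6:33075740-33076039, plus strand (HLA-DPB1), with CCAAT on either strand in capitals.
HLA-DMA: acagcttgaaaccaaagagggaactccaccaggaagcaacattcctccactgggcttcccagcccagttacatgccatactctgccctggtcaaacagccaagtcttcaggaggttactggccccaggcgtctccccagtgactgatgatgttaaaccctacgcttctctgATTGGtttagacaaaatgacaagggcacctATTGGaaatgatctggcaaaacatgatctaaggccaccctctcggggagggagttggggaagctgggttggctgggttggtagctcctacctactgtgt
HLA-DPB1: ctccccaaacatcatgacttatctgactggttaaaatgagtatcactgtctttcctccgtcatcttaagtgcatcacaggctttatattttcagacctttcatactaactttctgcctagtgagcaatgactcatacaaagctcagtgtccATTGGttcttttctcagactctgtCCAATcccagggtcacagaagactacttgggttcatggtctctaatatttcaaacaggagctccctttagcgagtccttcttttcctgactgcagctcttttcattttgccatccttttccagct
CCAAT was present in 12 of 15 (80%) windows of the class II list, against 35.7% of all windows and 36.6% of those of tested protein-coding genes. The letters GCAACAG, searched as the core of the RFX site, were in 1 of 15 (6.67%), against 3.65% of those of tested protein-coding genes. Of the 2 genes shown, HLA-DMA had 42.9, 40.4 and 42.4 CPM in the SGI-7079 libraries, against 9.08, 8.54 and 10.7 CPM in the DMSO libraries, and HLA-DPB1 had 10.0, 11.2 and 10.7 CPM in the SGI-7079 libraries, against 1.52, 1.01 and 1.34 CPM in the DMSO libraries. The mitosis list, which fell, had CCAAT in 24 of 33 (72.7%) windows, so that these letters went with either direction.

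MHC class I genes were mixed. Of 17 genes of class I and peptide loading 5 rose and 7 fell, with a median of -0.04 that turned to 0.14 with upper-quartile scaling. Among all genes tested 27.9% rose and 28.8% fell, so that the share that rose was near that of all genes. HLA-E, a ligand of NK cell receptors, had 486, 484 and 481 CPM in the SGI-7079 libraries, against 236, 243 and 251 CPM in the DMSO libraries, and HLA-C and the loading factor gene TAPBP changed by 0.21 ± 0.038 and 0.18 ± 0.035. HLA-B (-0.04 ± 0.035) and B2M (0.05 ± 0.032) did not pass. The endoplasmic reticulum chaperone gene CALR had 441, 429 and 429 CPM in the SGI-7079 libraries, against 1298, 1279.6 and 1365 CPM in the DMSO libraries, and its partner PDIA3 changed by -0.91 ± 0.033; both serve glycoprotein folding in general. The transporter gene TAP2 (-0.57 ± 0.048) and the immunoproteasome gene PSMB8 (-0.52 ± 0.050) fell.

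Interferon-stimulated genes were mostly higher, although not uniformly. Of 29 tested genes 17 rose and 4 fell, with a median of 0.66 that was 0.25 with limma on log2(FPKM + 1). STAT2, which carries the type I interferon signal, had 237, 228 and 239 CPM in the SGI-7079 libraries, against 74.8, 69.9 and 76.5 CPM in the DMSO libraries (1.67 ± 0.042), and its partner IRF9 had 19.6, 22.1 and 21.5 CPM in the SGI-7079 libraries, against 7.45, 9.19 and 10.1 CPM in the DMSO libraries. OAS2, which senses double-stranded RNA, changed by 1.44 ± 0.12 and RSAD2 (viperin) by 1.93 ± 0.14. Genes that fell included the ubiquitin-like modifier gene ISG15 (-0.55 ± 0.14), its ligase gene HERC5 (-0.55 ± 0.17) and its protease gene USP18 (-0.66 ± 0.18). Among 23 chemokine, cytokine and NF-kB genes 8 rose and 10 fell, where 27.9% of all genes rose and 28.8% fell. TNF had 12.8, 12.8 and 13.1 CPM in the SGI-7079 libraries, against 49.9, 47.7 and 56.5 CPM in the DMSO libraries, OSM changed by -2.11 ± 0.21 and CCL3 by -1.22 ± 0.16, while IL18 had 12.8, 16.6 and 14.3 CPM in the SGI-7079 libraries, against 4.50, 3.30 and 4.11 CPM in the DMSO libraries and NFKB2 and ICAM1 changed by 0.67 ± 0.042 and 0.57 ± 0.060.

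Lysosomal genes rose in most cases. Of 37 tested 26 rose and 5 fell, with a median of 0.45, and their sums were 5908 to 6010.1 CPM in the SGI-7079 libraries and 4299.8 to 4423 CPM in the DMSO libraries. DNASE2, the nuclease that digests engulfed DNA, had 35.4, 33.4 and 37.1 CPM in the SGI-7079 libraries, against 2.29, 3.16 and 2.85 CPM in the DMSO libraries (3.67 ± 0.12, adjusted p = 8.18e-09). PSAP, the precursor of the saposins, had 558, 550.0 and 540.1 CPM in the SGI-7079 libraries, against 204, 194 and 213 CPM in the DMSO libraries, and CTSD, cathepsin D, had 488, 498 and 495 CPM in the SGI-7079 libraries, against 271, 266 and 270.1 CPM in the DMSO libraries. TFEB, the factor that directs lysosome genes, had 34.8, 34.5 and 35.2 CPM in the SGI-7079 libraries, against 16.2, 15.2 and 17.4 CPM in the DMSO libraries. Those that fell had small changes, such as the galactosidase gene GLA (-0.21 ± 0.046) and the proton pump subunit gene ATP6V0D1 (-0.27 ± 0.040). Autophagy genes were more evenly divided, with 13 of 24 risen and 7 fallen; GABARAPL1, which coats the autophagosome, had 20.8, 18.8 and 18.1 CPM in the SGI-7079 libraries, against 2.99, 4.27 and 5.36 CPM in the DMSO libraries, the related GABARAP changed by 0.82 ± 0.038 and the receptor gene SQSTM1 by 0.48 ± 0.041, while ATG5 (-0.41 ± 0.059), ATG7 (-0.28 ± 0.060) and ULK2 (-0.64 ± 0.14) fell. WIPI2 fell with TMM scaling (-0.16 ± 0.036) and not with upper-quartile scaling (0.012).

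The start of LAMP1 is shown because it repeats the E-box CACGTG, the core of the element that TFEB and its relatives bind; capitals mark it in the RefSeq window at chr13:113296989-113297288, plus strand of GRCh38.p14.
LAMP1: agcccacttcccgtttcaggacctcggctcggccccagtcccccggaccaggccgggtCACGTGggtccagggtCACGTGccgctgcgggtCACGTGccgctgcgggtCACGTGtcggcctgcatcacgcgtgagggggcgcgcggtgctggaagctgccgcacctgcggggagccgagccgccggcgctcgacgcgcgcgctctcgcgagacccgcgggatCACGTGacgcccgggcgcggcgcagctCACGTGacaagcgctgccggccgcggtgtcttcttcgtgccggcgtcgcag
An E-box was present in 8 of 26 (30.8%) windows of the lysosome list, in 7.43% of all windows and in 10.1% of those of tested protein-coding genes. LAMP1, the main lysosomal membrane protein, had 345, 324 and 336 CPM in the SGI-7079 libraries, against 263, 262 and 278 CPM in the DMSO libraries, a modest change of 0.33 ± 0.037. In the ribosome biogenesis list, whose members fell, the share was 10 of 23 (43.5%).

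Iron and redox genes changed in both directions. HMOX1, which degrades haem, had 32.1, 30.0 and 32.6 CPM in the SGI-7079 libraries, against 6.71, 4.96 and 5.66 CPM in the DMSO libraries (2.45 ± 0.11), and FTH1 had 2496, 2444 and 2418 CPM in the SGI-7079 libraries, against 1401, 1391 and 1376 CPM in the DMSO libraries. The transferrin receptor gene TFRC, which imports iron, had 262, 272 and 266 CPM in the SGI-7079 libraries, against 501, 505 and 488 CPM in the DMSO libraries. SLC7A11, which imports cystine for glutathione, had 54.5, 59.9 and 64.6 CPM in the SGI-7079 libraries, against 16.0, 14.8 and 11.5 CPM in the DMSO libraries (2.08 ± 0.12), and GCLC, the first enzyme of glutathione synthesis, rose by 0.86 ± 0.066, while GPX4 (-0.46 ± 0.033), NQO1 (-0.78 ± 0.048) and TXNRD1 (-0.41 ± 0.030) fell. In all, 8 of 21 rose and 8 fell, where 27.9% of all genes rose and 28.8% fell. SLC7A11 was also the only 1 of 21 ATF4 targets called higher, against 5 called lower, where 11.6% of all genes were called higher and 7.33% lower. The amino acid transporter genes SLC7A5 and SLC7A1 changed by -1.57 ± 0.038 and -1.26 ± 0.037 and GPT2 by -2.16 ± 0.070.

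Genes of cell death, both those that favour survival and those that oppose it, fell more often than they rose. Of 16 BCL2 family genes 9 fell and 2 rose, with a median of -0.35 that was -0.17 with upper-quartile scaling and -0.11 with limma on log2(FPKM + 1). BMF, a BH3-only gene that opposes survival, had 226, 214 and 211 CPM in the SGI-7079 libraries, against 67.2, 70.2 and 73.4 CPM in the DMSO libraries (1.63 ± 0.044, adjusted p = 2.48e-09). The survival genes BCL2, with 156, 147 and 147 CPM in the SGI-7079 libraries, against 205, 201 and 202 CPM in the DMSO libraries, and MCL1, with 203, 209 and 203 CPM in the SGI-7079 libraries, against 271, 267 and 272 CPM in the DMSO libraries, fell. BAX, an effector of death, fell as well, with 70.3, 81.9 and 79.3 CPM in the SGI-7079 libraries, against 125, 119 and 131 CPM in the DMSO libraries, and the other riser was BIK (0.30 ± 0.094). Of 24 p53 targets 16 fell and 5 rose, with a median of -0.35 that was -0.18 with upper-quartile scaling and -0.15 with limma on log2(FPKM + 1). AEN changed by -1.27 ± 0.047 and DDB2 by -0.58 ± 0.041, while TP53INP1 (1.11 ± 0.085), ZMAT3 (0.47 ± 0.063) and BTG2 (0.42 ± 0.062) rose.

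Among named lncRNAs of at least 5 CPM, LINC01857 had 14.8, 16.6 and 16.0 CPM in the SGI-7079 libraries, against 1.04, 1.06 and 1.80 CPM in the DMSO libraries. TRMT61A-DT, divergent to a tRNA methyltransferase gene, had 31.1, 31.1 and 34.0 CPM in the SGI-7079 libraries, against 3.96, 4.30 and 3.83 CPM in the DMSO libraries, and SYT9-AS1 and ID2-AS1 changed by 3.41 ± 0.23 and 2.74 ± 0.21. Of those that were lower, TMPO-AS1, antisense to the gene of a lamina protein, had 7.86, 7.71 and 8.78 CPM in the SGI-7079 libraries, against 42.6, 42.1 and 42.5 CPM in the DMSO libraries. MIR17HG, the host of the miR-17-92 cluster, had 5.00, 7.82 and 6.88 CPM in the SGI-7079 libraries, against 21.7, 21.3 and 19.5 CPM in the DMSO libraries, and SNHG26, LINC03105 and MIF4GD-DT changed by -1.63 ± 0.097, -1.60 ± 0.15 and -1.57 ± 0.26. The libraries marked strand, but no source used here says whether counting took it into account, so reads of an antisense RNA and of its partner may be mixed.

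The effects were set against those in MOLM13, treated with the same dose for the same time, in a model of all 12 libraries. The difference of the effects passed the test in 4428 of 21438 genes (20.7%), and in 20 of the 24 genes named above as most changed in MV411. Those 24 were chosen for their change in MV411, so the count is given as a description. SLC7A11 went in opposite directions, with a log2 fold change of 2.15 in MV411 and -1.52 in MOLM13, a difference of 3.67 ± 0.17 (SE). MCM10 changed by -3.45 in MV411 and -1.69 in MOLM13, a difference of -1.77 ± 0.065. LSP1, with a change of 2.82 in MV411 and 2.98 in MOLM13, did not pass (adjusted p = 0.69). IGFBP2 was the only one of the 12 fallen genes with a larger fall in MOLM13, -3.89 against -2.99 in MV411.

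**Figure D5:**
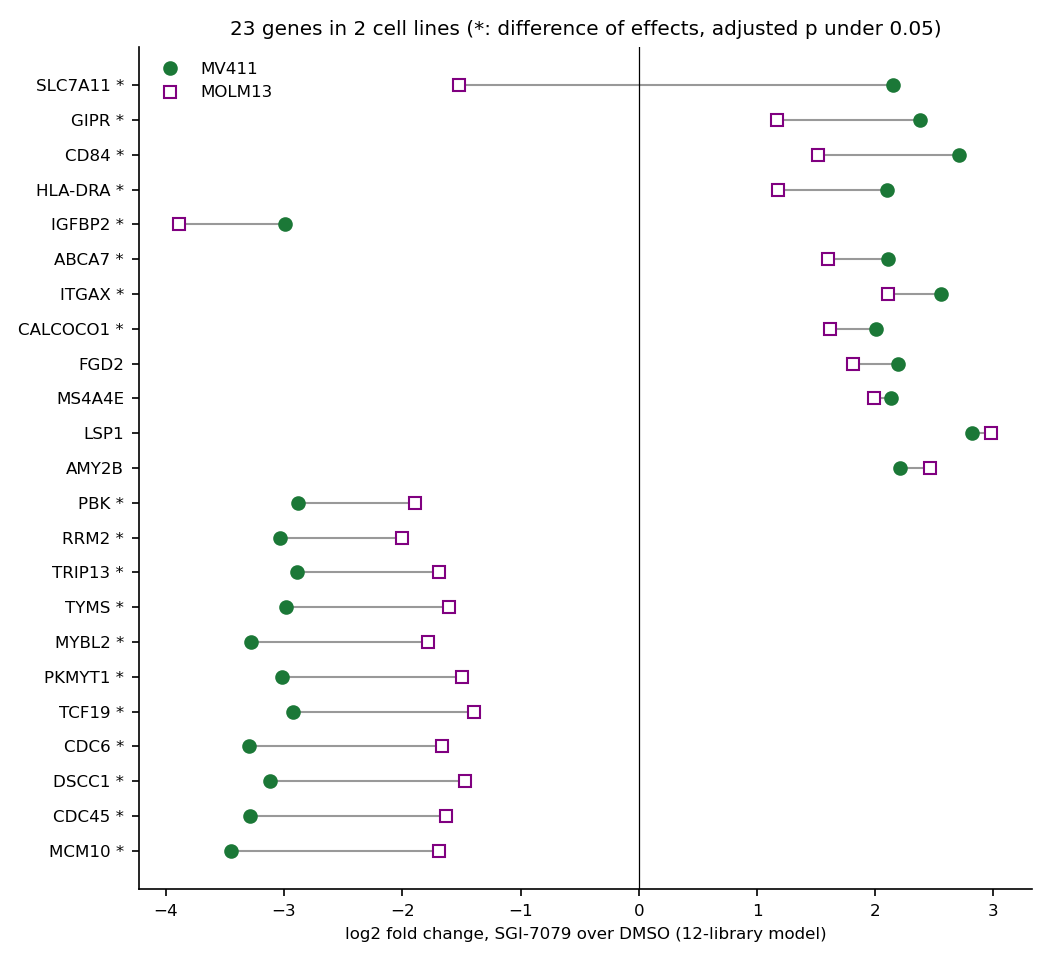
Log2 fold change of SGI-7079 over DMSO in MV411 (filled circles) and MOLM13 (open squares) for 23 of the 24 well-expressed protein-coding genes that changed most in MV411, ordered by the difference and joined by a line, with an asterisk where the difference passed the test. SLC7A11 alone lies on opposite sides of 0, and 11 of the 12 fallen genes fell further in MV411.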

How the data were processed

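For each gene the authors deposited counts and FPKM, named so per the file headers; counts were whole numbers and were not normalized. Per the labels' protocols, RNA of RIN over 7.0 was purified with oligo(dT), and libraries that keep strand were read in pairs. Per the submitters' processing notes, reads were handled with edgeR, DESeq2, StringTie 2.1.6, HISAT2 2.2.1 and cutadapt 1.9 (order not stated) on hg38, and the design text names featureCounts for counting. No source used here says how reads matching several genes were counted.

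Counts of the 6 MV411 libraries were tested with edgeR 4.0.16 (R 4.3.3), using TMM, filterByExpr at a minimum count of 10, the quasi-likelihood F-test and Benjamini-Hochberg adjustment over 19783 genes. SEs were derived from the fold change and its F statistic (size of log2 change over the root of F). Depth was 52352252 to 61862017 counts per library. Gene types came from GENCODE 44 on the same build. Alternatives were other scalings and filters, DESeq2 1.42.0, limma 3.58.1 on log2(FPKM + 1) and log2(FPKM + 0.1), the 12-library model, a replicate block and leaving out each library. The test was also run on simulated counts in which few genes changed, so that run cannot speak to the scaling of these data. Counts of same-group libraries were further apart than counting noise alone gives (a chi-square of 10.1 to 13.7 for each degree of freedom), and each library was kept as a sample.

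Named genes were the 12 called protein-coding genes per direction with the largest change, no overlap between groups and at least 50 CPM in the higher group; the 8 per direction with the largest difference in FPKM; those with at least 5 CPM in one group and under 0.5 CPM in the other; up to 4 members per list and direction with the smallest adjusted p, and FLT3, MYC, AXL, CIITA, HOXA9 and MEIS1; and 5 lncRNAs per direction with at least 5 CPM. Genes named outside this rule (marker checks, members that did not pass, and those whose letters are shown) were chosen after their values were seen. Within the rule, every set except the genes added by symbol was limited to genes whose groups did not overlap in CPM. The Y copy of a pseudoautosomal gene was left out of the lists, and 1 Y-linked lncRNA and a few other genes that the rule names are not reported here. The gene lists and members were chosen with earlier results of these data known. Motifs were searched in RefSeq windows matched by symbol, 1 window per gene.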

Additional observations from a re-analysis of the deposited data

Results flagged for a closer look

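For 8 genes that changed strongly in MV411, the effect of SGI-7079 differed from that in MOLM13 by a test of the difference itself (edgeR, 12 libraries). SLC7A11 rose in MV411 and fell in MOLM13, with means of 59.0 CPM with SGI-7079 and 13.3 CPM with DMSO in MV411 and of 13.0 CPM with SGI-7079 and 37.4 CPM with DMSO in MOLM13, a difference of log2 effects of 3.67. The rise was larger in MV411 by 1.21 for GIPR, 1.19 for CD84 and 0.93 for HLA-DRA. The fall was larger in MV411 for MCM10 (a difference of -1.77), CDC45 (-1.66), DSCC1 (-1.65) and CDC6 (-1.63). The 4 replication genes stood at 6.55 to 8.90 CPM with SGI-7079 and 57.0 to 87.3 CPM with DMSO in MV411, and at 20.8 to 32.6 CPM with SGI-7079 and 57.6 to 103 CPM with DMSO in MOLM13. These genes were chosen for their change in MV411, and no cause of the differences was tested.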

How the results depend on the processing

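The counts of genes that rose or fell stayed within 1.5 times those reported under every alternative run. Calls past 2-fold changed with limma on log2(FPKM + 1), which gave 578 higher and 547 lower, and on log2(FPKM + 0.1), which gave 965 lower and 2343 higher; both differ from the reported test in unit, scaling and tool at once, and the cause was not tested. Without a single library the calls ranged from 2015 to 2357 higher and from 1381 to 1483 lower. Of 257 named genes, LYZ turned to 0.015 and WIPI2 to 0.012 with upper-quartile scaling, and to 0.015 and to 0.011 or 0.012 with limma at a pseudocount of 1 or 0.1; the cause was not tested. A further 11 named genes no longer passed with upper-quartile scaling, 9 and 11 with limma at a pseudocount of 1 and 0.1, 6 in the 12-library model, and 1 to 4 without a single library. Of 152 counts over the 38 gene lists (genes that rose, fell, or were called higher or lower), 19 changed by more than 1.5 times with upper-quartile scaling, 44 and 23 with limma at a pseudocount of 1 and 0.1, 10 in the 12-library model and at most 5 under any other alternative. All 257 named genes kept direction and side of the threshold with RLE scaling, DESeq2, both count filters and the replicate block. Same-numbered libraries did not deviate together (correlations of 0.001 to 0.03), so their numbers were not taken to pair them; a fit with the replicate block gave 2138 genes called higher and 1406 called lower. For genes under about 1 CPM the depth limits the precision of fold changes.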
